A study of Mus musculus with 6 samples.

Results

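Globin and red cell mRNAs were followed as a measure of the blood that stays in dissected brain tissue, with 5 genes chosen by name among the 13299 protein-coding genes of the deposited table. They are the adult alpha globin genes Hba-a1 and Hba-a2, the adult beta globin genes Hbb-bs and Hbb-bt, and Alas2, the erythroid form of the enzyme that starts heme synthesis. Bulk RNA was sequenced from the neocortex of 3 HuD KO mice (Elavl4-/-, a replacement of exon 2 of Elavl4 by a PGK-Neo cassette in every cell of the animal) and of 3 wild type littermates, here called control. All were untreated adult C57BL/6 males of about 3 to 4 months, with 1 mouse per library. HuD KO replicate 2 was left out of the study's own analysis after a principal component analysis. Differences are therefore given over the other 5 libraries, HuD KO replicates 1 and 3 against the 3 control libraries, and again over all 6.

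Red cells lose their nucleus before they enter the blood, but the youngest ones, the reticulocytes, still carry mRNA, and most of it encodes globin. Adult hemoglobin joins a pair of alpha chains with a pair of beta chains, each holding a heme that ALAS2 and the enzymes after it build in the mitochondria of the maturing red cell. In brain RNA these transcripts mostly come with the blood in the vessels, although low globin expression in neurons and glia has also been described. Since the samples are bulk tissue, fewer red cells and less globin mRNA per red cell cannot be told apart. The sources used here do not say whether vessels were flushed before dissection.

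The alpha genes are near-identical copies in their coding sequence, as are the beta genes, which bears on how far each gene's own value can be read. Hba-a1 (ENSMUSG00000069919.7) lies at chr11:32283511-32284465 on the plus strand of mm10 and Hba-a2 (ENSMUSG00000069917.7) at chr11:32296489-32297298 on the same strand. Over the 429 bases of coding sequence in the GENCODE M21 transcripts they differ at 1 base, C381T, counted from 1 at the first base of the start codon, with the base of Hba-a1 first. It is the last base of codon 127, in exon 3 of 3. The windows that hold it, chr11:32284329-32284357 for Hba-a1 and chr11:32297146-32297174 for Hba-a2, are shown to make plain how little tells the coding sequences apart, with the differing base in capitals.
Hba-a1: catgcctctctggaCaaattccttgcctc
Hba-a2: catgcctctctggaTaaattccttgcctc

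Hbb-bs (ENSMUSG00000052305.6) lies at chr7:103826534-103828096 and Hbb-bt (ENSMUSG00000073940.3) at chr7:103812524-103813996, both on the minus strand. Their 444 coding bases also differ at a single base, C417T, the last of codon 139 in exon 3 of 3, with the base of Hbb-bs first. The windows are chr7:103826678-103826706 for Hbb-bs and chr7:103812669-103812697 for Hbb-bt, and are written 5′ to 3′ along the mRNA.
Hbb-bs: gtggctggagtggcCgctgccctggctca
Hbb-bt: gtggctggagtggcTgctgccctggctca

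Of the stretches of 100 bases that can be laid on the Hba-a1 mRNA, 56.5% occur without a mismatch in the Hba-a2 mRNA, and 62.6% of those of the Hbb-bs mRNA occur in the Hbb-bt mRNA. None of the Hba-a1 stretches occurs in Hbb-bs. The split between copies is thus uncertain where reads fit both. Alas2 (ENSMUSG00000025270.13), at chrX:150547375-150570638 on the plus strand, has no such copy among the 5 genes and is read on its own.

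RefSeq promoter windows of 300 bases on GRCm38.p6, from 250 bases before the start to 50 after, were matched for all 5 genes by symbol. The windows of Hba-a1 and Hba-a2 were equal at 297 of 297 bases when shifted by 3 bases, while those of Hbb-bs and Hbb-bt were equal at 168 of 299. GATAA, the core recognised by GATA factors such as the erythroid factor GATA1, was searched on both strands and occurred in 5 of 5 of these windows and in 25.4% of the 32851 promoter windows in the set. CACCC, the core of sites bound by KLF1, an activator of adult beta globin, occurred in 5 of 5 and in 57.5% of all windows. ATATAA, a variant of the promoter element that TBP binds, occurred in the 4 globin windows and in 9.82% of all windows, and was not found in that of Alas2. The GATAA matches are shown because all 5 windows hold the motif and it is the rarer in all promoters of the motifs they share, with the match in capitals (TTATC where it lies on the other strand). A match is a run of letters and was not tested as a binding site.
Hba-a1 at chr11:32283480-32283504: ccgggcaactGATAAggattccctg
Hba-a2 at chr11:32296297-32296321: ccgggcaactGATAAggattccctg
Hbb-bs at chr7:103828123-103828147: tctctgcacaGATAAggacaaacat
Hbb-bt at chr7:103814113-103814137: tagctgcaagGATAAgaacagacac
Alas2 at chrX:150547321-150547345: actttgctttTTATCtttagcagag

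Before the members, the libraries were checked. Elavl4, the targeted gene, was at 1.70, 1.07 and 1.52 FPKM (a fragment count scaled by gene length and by library size) in HuD KO replicates 1, 2 and 3, against 34.2, 30.4 and 28.3 FPKM in control replicates 1, 2 and 3, so the labels hold in each library. The values of all listed genes sum to between 216651 and 227439 FPKM per library. Read depth is unknown, because low values show no step of 1 read. Every listed gene averaged at least 0.5 FPKM in a genotype, so a gene that is not listed may still be expressed below that level.

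Globin mRNAs were abundant in each of the 6 libraries, and Alas2 mRNA was near the low end of the listed genes. By mean FPKM over the 6 libraries Hbb-bs ranked 212, Hba-a2 278, Hba-a1 349 and Hbb-bt 822 of 13299 genes, with means of 118, 97.3, 83.3 and 46.8 FPKM, and Alas2 ranked 11574 with 1.23 FPKM. The 4 globin genes together made up 0.126% to 0.182% of the summed FPKM of a library. Hba-a2 was above Hba-a1, and Hbb-bt below the other globins, in 6 of 6 libraries. Hbb-bs was the highest in 5 of 6, HuD KO replicate 2 being the exception, where Hba-a2 was highest. Across libraries the ranges of Hbb-bs (87.3 to 146 FPKM), Hba-a2 (79.3 to 108 FPKM) and Hba-a1 (70.0 to 101 FPKM) overlap, so their order does not exceed the spread between libraries, while that of Hbb-bt (37.2 to 55.8 FPKM) lies below all of these and that of Alas2 (0.826 to 1.54 FPKM) far below.

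Hba-a1, which encodes alpha globin, was at 83.2, 72.4 and 70.0 FPKM in HuD KO replicates 1, 2 and 3, against 82.2, 91.0 and 101 FPKM in control replicates 1, 2 and 3. HuD KO replicate 1 lay above control replicate 1, so the genotypes overlap by that library, and the remaining HuD KO libraries lay below each control. The mean was 76.6 ± 9.35 FPKM in HuD KO (SD, n = 2) and 91.5 ± 9.52 FPKM in control (SD, n = 3). The log2 fold change, on the scale of log2(FPKM + 1), was −0.25 (SE 0.12, limma adjusted p = 0.995 over 13121 genes) over 5 libraries and −0.28 (SE 0.12, limma adjusted p = 0.871 over 13114 genes) over 6.

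Hba-a2, which encodes the same chain, was at 96.5, 102 and 79.3 FPKM in HuD KO replicates 1, 2 and 3, against 90.0, 108 and 108 FPKM in control replicates 1, 2 and 3. Here only HuD KO replicate 3 lay below every control library, and replicate 2, which was among the lowest libraries for Hba-a1, was the highest of the HuD KO libraries. The means were 87.9 ± 12.2 FPKM in HuD KO (SD, n = 2) and 102 ± 10.5 FPKM in control (SD, n = 3), with a log2 fold change of −0.22 (SE 0.13) over 5 libraries and −0.14 (SE 0.14) over 6.

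Hbb-bs, the more abundant of the beta globin genes, was at 125, 87.3 and 99.1 FPKM in HuD KO replicates 1, 2 and 3, against 112, 136 and 146 FPKM in control replicates 1, 2 and 3. HuD KO replicate 2 was the lowest library and control replicate 3 the highest, and replicate 1 of HuD KO again lay above replicate 1 of control. The means were 112 ± 18.0 FPKM in HuD KO (SD, n = 2) and 131 ± 17.4 FPKM in control (SD, n = 3), with a log2 fold change of −0.23 (SE 0.15) over 5 libraries and −0.35 (SE 0.17) over 6.

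Hbb-bt, the less abundant beta globin gene, was at 48.0, 43.0 and 37.2 FPKM in HuD KO replicates 1, 2 and 3, against 44.6, 52.0 and 55.8 FPKM in control replicates 1, 2 and 3. Its pattern is that of Hba-a1, with HuD KO replicate 1 among the control values and the other HuD KO libraries below them. The means were 42.6 ± 7.64 FPKM in HuD KO (SD, n = 2) and 50.8 ± 5.73 FPKM in control (SD, n = 3), and the log2 fold change was −0.25 (SE 0.15) over 5 libraries and −0.25 (SE 0.14) over 6.

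Alas2 was at 1.47, 0.826 and 1.08 FPKM in HuD KO replicates 1, 2 and 3, against 1.31, 1.54 and 1.15 FPKM in control replicates 1, 2 and 3. HuD KO replicates 2 and 3 were the lowest libraries and control replicate 3, the highest for most globins, was the lowest control for Alas2. The means were 1.27 ± 0.275 FPKM in HuD KO (SD, n = 2) and 1.33 ± 0.194 FPKM in control (SD, n = 3), and the log2 fold change was −0.04 (SE 0.13) over 5 libraries, −0.14 (SE 0.14) over 6 and 0.012 after quantile normalization, where its sign turns.

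**Figure D1:**
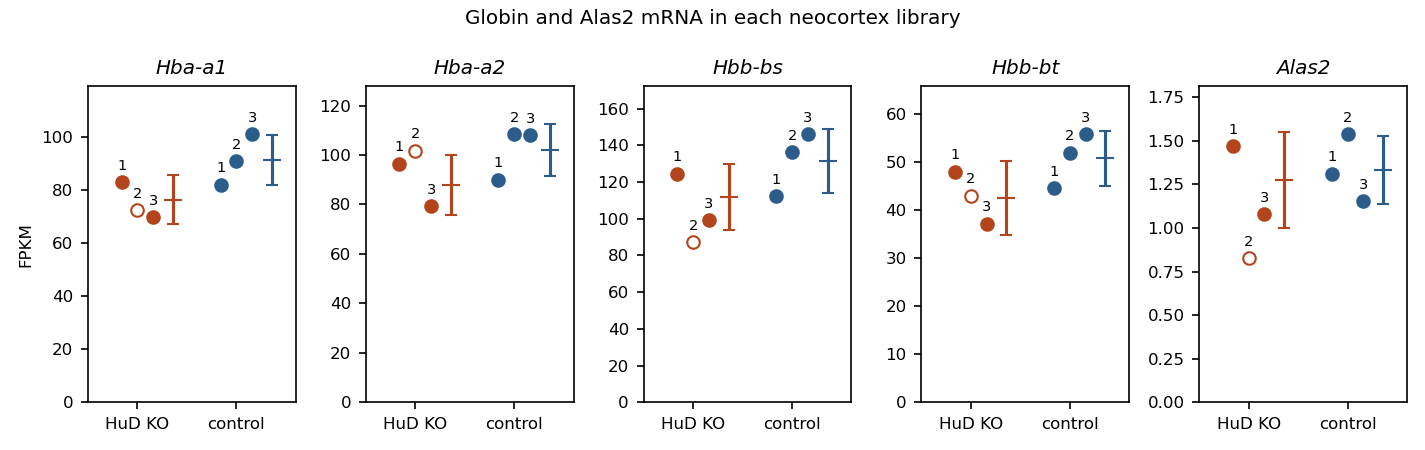
FPKM (vertical axis, from 0) of each gene in each library, HuD KO in orange left of control in blue, with replicate numbers above the points; the open circle is HuD KO replicate 2, and bars give mean ± SD of HuD KO replicates 1 and 3 and of the 3 control libraries. For Hba-a1 the HuD KO points lie between 70.0 and 83.2 FPKM and the control points between 82.2 and 101 FPKM, and in each panel the genotypes overlap.

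Of the 5 genes, 0 passed an adjusted p of 0.05 over 5 libraries, where 0.0457% of the 13121 genes tested did, and 0 over 6 libraries, where 0.0305% of 13114 did. At an unadjusted p of 0.05 none passed in either limma fit, where 3.43% of all genes tested did over 5 libraries and 3.48% over 6, the lowest being 0.0885 over 5 libraries and 0.0595 over 6, both for Hba-a1. Exact two-sided permutation tests gave p = 0.4 for each globin gene and p = 0.8 for Alas2 over 5 libraries, where the smallest possible is 0.2. Over 6 libraries, where the smallest is 0.1, the exact permutation p was 0.2 for Hba-a1, Hbb-bs and Hbb-bt, 0.5 for Hba-a2 and 0.4 for Alas2.

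The log2 fold changes of 5 of 5 genes were below 0 over 5 libraries, where 55.5% of all genes tested were, and 5 of 5 over 6 libraries, where 52.4% were. The alpha copies and the beta copies share reads and the genes share red cells, so these are not independent values. Their median was −0.23 over 5 libraries and −0.25 over 6, beside −0.02 and −0.01 for all genes tested. In 0 of 5 genes did every HuD KO library lie below every control, over 5 or over 6 libraries, whereas 11.0% and 5.70% of all genes tested had that order. The 95% intervals of the log2 fold changes over 5 libraries reached down to −0.56 for Hba-a1, −0.54 for Hba-a2, −0.61 for Hbb-bs, −0.62 for Hbb-bt and −0.36 for Alas2, and up to 0.05, 0.11, 0.15, 0.11 and 0.28 for the same genes in that order. Without HuD KO replicate 3 the globin values shrank to between −0.13 and −0.07 and Alas2 stood at 0.084, and without HuD KO replicate 1 the globins lay between −0.43 and −0.36.

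**Figure D2:**
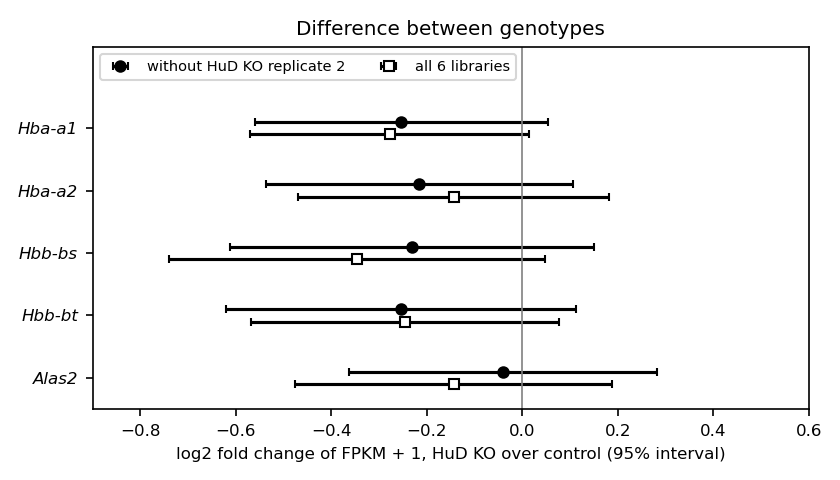
Log2 fold change of FPKM + 1, HuD KO over control (horizontal axis), for the 5 genes, with 95% intervals from limma; filled circles are the 5 libraries without HuD KO replicate 2 and open squares all 6. The intervals of Hba-a1 run from −0.56 to 0.05 over 5 libraries and from −0.57 to 0.01 over 6, and each of the 10 intervals drawn includes 0.

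The copies were also summed per chain. Since FPKM divide by lengths that differ between copies, such a sum still depends in part on how shared reads were split. Alpha globin, Hba-a1 plus Hba-a2, was at 180, 174 and 149 FPKM in HuD KO replicates 1, 2 and 3, against 172, 199 and 209 FPKM in control replicates 1, 2 and 3. Beta globin, Hbb-bs plus Hbb-bt, was at 173, 130 and 136 FPKM in HuD KO replicates 1, 2 and 3, against 157, 188 and 202 FPKM in control replicates 1, 2 and 3. For both chains HuD KO replicate 1 lay above control replicate 1 and the other HuD KO libraries, except replicate 2 for alpha globin, lay below every control. All 4 genes together summed to 319 ± 47.2 FPKM in HuD KO (SD, n = 2) and 376 ± 42.3 FPKM in control (SD, n = 3), a log2 ratio of −0.24 that was given no test. It was −0.26 over 6 libraries, −0.40 without HuD KO replicate 1, −0.09 without HuD KO replicate 3 and −0.32 without control replicate 1. With FPKM multiplied by the length behind them, a quantity proportional to fragments in which a read counts the same on either copy, the log2 ratio was also −0.24. The highest library held 1.44 times the globin FPKM of the lowest.

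The ratio of beta to alpha globin FPKM was nearly the same in 5 libraries and stood apart in HuD KO replicate 2. It was 0.960, 0.748 and 0.913 in HuD KO replicates 1, 2 and 3, against 0.910, 0.943 and 0.965 in control replicates 1, 2 and 3. The difference of its log2 value between genotypes was −0.0040 over 5 libraries and −0.11 over 6, a shift that rests on HuD KO replicate 2. With FPKM multiplied by length the ratio was 0.981, 0.768 and 0.932 in HuD KO replicates 1, 2 and 3, against 0.927, 0.965 and 0.982 in control replicates 1, 2 and 3, the same library standing apart.

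The same library stood apart within each chain. Hba-a1 over Hba-a2 was 0.862, 0.712 and 0.883 in HuD KO replicates 1, 2 and 3, against 0.913, 0.840 and 0.938 in control replicates 1, 2 and 3. Hbb-bs over Hbb-bt was 2.60, 2.03 and 2.66 in HuD KO replicates 1, 2 and 3, against 2.52, 2.62 and 2.61 in control replicates 1, 2 and 3. In the other 5 libraries Hbb-bs thus made up 71.6% to 72.7% of beta globin FPKM, against 67.0% in HuD KO replicate 2.

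Alas2 set against globin showed another order. It stood at 4.17, 2.71 and 3.78 FPKM per 1000 globin FPKM in HuD KO replicates 1, 2 and 3, against 3.99, 3.97 and 2.80 in control replicates 1, 2 and 3. HuD KO replicate 2 and control replicate 3 were low and the remaining 4 libraries lay between 3.78 and 4.17, so the low values fell in both genotypes. The difference between genotypes in the log2 ratio was 0.16 over 5 libraries, −0.02 over 6 and −0.0044 without control replicate 3.

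**Figure D3:**
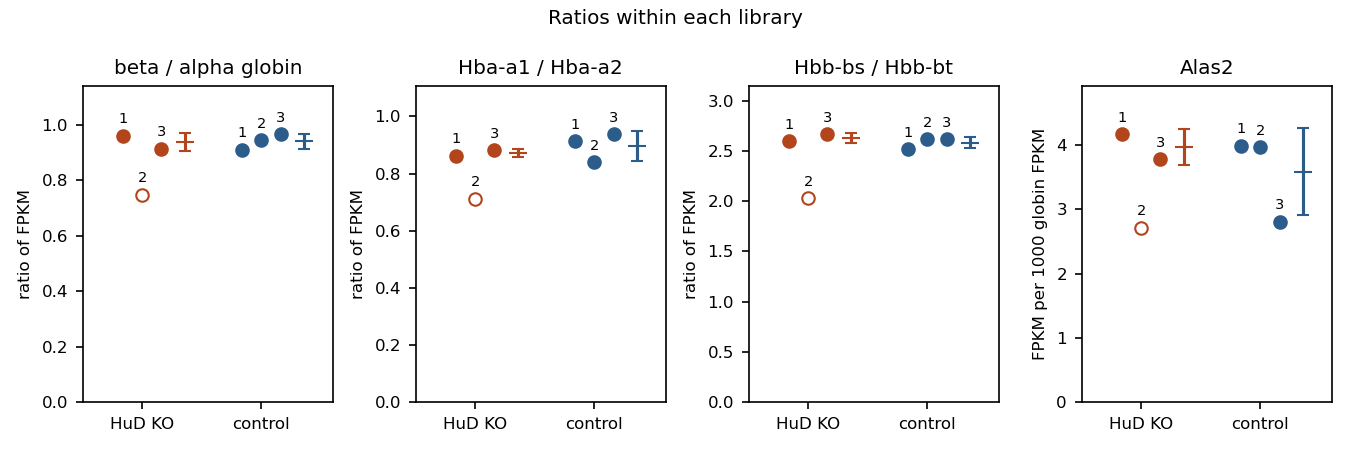
Ratios within each library (vertical axes from 0), HuD KO in orange left of control in blue, replicate numbers above the points, HuD KO replicate 2 open, bars mean ± SD without it. The beta to alpha ratio lies between 0.910 and 0.965 in the 5 filled libraries and at 0.748 in HuD KO replicate 2, and Alas2 per 1000 globin FPKM is low in HuD KO replicate 2 (2.71) and control replicate 3 (2.80).

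Levels of different genes can be compared only as far as the length behind FPKM is known. Multiplied by the length of all annotated exons of the gene merged, retained introns included, the values became whole millionths in each library for 10328 of 10335 genes that carried more than 6 decimals and had an identifier in GENCODE M21 (within 0.01 of a step), and so did those of 5 of the 5 members. That length is 812 bases for Hba-a1, 667 for Hba-a2, 768 for Hbb-bs, 703 for Hbb-bt and 2403 for Alas2, against spliced mRNAs of 699, 554, 628, 703 and 2037 bases in the same order. Per spliced mRNA length the 6-library means were 96.8 for Hba-a1, 117 for Hba-a2, 144 for Hbb-bs and 46.8 for Hbb-bt, an order that is not altered, and the mean beta to alpha ratio was 0.888 in place of 0.907. Fold changes between genotypes of single genes, as plain ratios, are the same on either length.

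On the scale of log2(FPKM + 1), the spread between libraries was near that of the listed genes at large for most members and wider for Hbb-bs. In plain FPKM Alas2 varied most, its highest library at 1.86 times its lowest, against 1.37 (Hba-a2) to 1.67 (Hbb-bs) for the globins. The added 1 shrinks the log2 spread of a gene as low as Alas2. The SD of log2(FPKM + 1) over the 6 libraries was 0.20 for Hba-a1, 0.17 for Hba-a2, 0.28 for Hbb-bs, 0.20 for Hbb-bt and 0.18 for Alas2, and between 47.4% (Hba-a2) and 77.9% (Hbb-bs) of listed genes had a smaller one. Averaged over the 4 globin genes, libraries deviated from the 6-library mean by 0.04, −0.16 and −0.26 on the log2 scale in HuD KO replicates 1, 2 and 3, against −0.05, 0.17 and 0.26 in control replicates 1, 2 and 3. The extremes were thus the replicates numbered 3 of both genotypes.

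Genes outside the group were ranked by how near their profile over the 6 libraries lay to that globin average, as the root mean square difference of log2 deviations among 11993 genes averaging 1 FPKM or more. The nearest were Zfp236 (0.05), Magi1 (0.06), Zbtb11 (0.06), Tmem173 (0.06), Crispld1 (0.07) and Umps (0.07). Hbb-bt and Hba-a1 lay nearer to it than any of these, at 0.03 each, and both enter the average themselves, whereas 134 outside genes lay nearer than Hba-a2 and 178 nearer than Hbb-bs. Alas2, at 0.17, had 1737 outside genes nearer, and a gene that did not vary at all would lie at 0.18. Zfp236, a zinc finger gene, was at 3.66, 3.27 and 2.82 FPKM in HuD KO replicates 1, 2 and 3, against 3.76, 3.99 and 4.61 FPKM in control replicates 1, 2 and 3. With so many genes and only 6 libraries a near profile is a description and says nothing of shared control.

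The remaining globin genes gave little signal. Of 12 further globin names looked for, 3 were listed, all with log2 fold changes below 0 over 5 libraries, 2 of 3 over 6, where Cygb stood at 0.06, and none called. Hbq1a, a theta globin gene 2771 bases past Hba-a2, was at 0.271, 0.238 and 0.993 FPKM in HuD KO replicates 1, 2 and 3, against 1.16, 1.06 and 0.470 FPKM in control replicates 1, 2 and 3, low in some libraries of both genotypes. Cygb, the cytoglobin gene of fibroblast-like and some neuronal cells, was at 24.8, 31.3 and 24.3 FPKM in HuD KO replicates 1, 2 and 3, against 23.5, 24.5 and 28.7 FPKM in control replicates 1, 2 and 3. Ngb, the neuronal neuroglobin gene, was at 1.70, 3.25 and 2.14 FPKM in HuD KO replicates 1, 2 and 3, against 2.24, 2.01 and 9.44 FPKM in control replicates 1, 2 and 3, a single high library. The embryonic globin genes Hbb-y, Hbb-bh1 and Hba-x were not listed.

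Further marker genes of red cell precursors, the erythroid-restricted list, were mostly not listed: 17 of 21. Among these were the band 3 gene Slc4a1, the hemoglobin chaperone gene Ahsp, and Gata1 and Klf1. The list is not confined to such cells, since Tal1 is also an endothelial gene. Of the 4 listed, 0 were called. Log2 fold changes were above 0 in 2 of 4 tested over 5 libraries and 2 of 3 over 6. Their medians were 0.13 and 0.36, opposite in sign to the globins. Summed, the list was at 4.92, 6.17 and 5.50 FPKM in HuD KO replicates 1, 2 and 3. In control replicates 1, 2 and 3 it was at 4.71, 4.79 and 3.10 FPKM, below each HuD KO library. Epor, the erythropoietin receptor gene, was at 2.67, 4.10 and 3.51 FPKM in HuD KO replicates 1, 2 and 3, against 2.53, 2.86 and 1.29 FPKM in control replicates 1, 2 and 3. Icam4, a red cell adhesion gene, was at 0.988, 1.15 and 0.768 FPKM in HuD KO replicates 1, 2 and 3, against 0.793, 0.506 and 0.331 FPKM in control replicates 1, 2 and 3. Both were lowest in control replicate 3, where 3 of the 4 globin genes were highest. Gypc, glycophorin C, averaged 0.812 FPKM in HuD KO replicates 1 and 3 and 0.866 FPKM in control, and Tal1, a blood and endothelial transcription factor gene, 0.428 FPKM in HuD KO replicates 1 and 3 and 0.562 FPKM in control. The label of red cell mRNA thus rests on the globin genes and on Alas2 at about 1 FPKM. Epor was above Alas2 in each library, and most other defining red cell genes were not listed.

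Genes of heme synthesis and of hemoglobin clearance, which brain cells also use, showed 0 calls. All 14 heme synthesis genes were listed, 9 with a log2 fold change below 0 over 5 libraries and 5 over 6, and their medians were −0.04 and 0.08. Fech, which inserts iron into the ring, was at 20.8, 19.8 and 21.2 FPKM in HuD KO replicates 1, 2 and 3, against 20.2, 19.4 and 18.8 FPKM in control replicates 1, 2 and 3. Alad, the next enzyme after ALAS, varied more within each genotype than between them, at 8.27, 24.8 and 14.8 FPKM in HuD KO replicates 1, 2 and 3, against 15.3, 8.28 and 13.0 FPKM in control replicates 1, 2 and 3. Cpox and Tmem14c had log2 fold changes of 0.12 and 0.03 over 5 libraries and 0.17 and −0.02 over 6. Of 14 clearance and heme breakdown genes 10 were listed, and the hemoglobin scavenger genes Cd163, Hp and Hpx were not. Fth1, ferritin heavy chain, was at 1358, 1926 and 1354 FPKM in HuD KO replicates 1, 2 and 3, against 1125, 1237 and 1098 FPKM in control replicates 1, 2 and 3, and its log2 fold change of 0.24 over 5 libraries and 0.40 over 6 did not pass the test. Ftl1 (−0.14 over 5 and −0.07 over 6), Slc48a1 (0.05 and −0.05) and Lrp1 (−0.03 and 0.14) did not either. Of 20 genes shared by red cells and brain 19 were listed and 0 called, with a median of 0.04 over 5 libraries and 0.07 over 6. Among the most abundant were Car2 (0.15 over 5 and 0.06 over 6), Prdx2 (−0.03 and 0.05) and Bnip3l (0.09 and −0.08).

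Markers of white cells and platelets, which would enter with the same blood, were sparse. Of 14 neutrophil markers 2 were listed, S100a9 and Csf3r, with S100a9 at 0.628, 0.116 and 0.727 FPKM in HuD KO replicates 1, 2 and 3, against 0.703, 0.745 and 1.14 FPKM in control replicates 1, 2 and 3. Of 16 lymphocyte markers 2 were listed (Cd4 and Lck), and of 10 monocyte markers 3 (Nr4a1, Ace and S100a4), of which Nr4a1 is also a neuronal activity gene. Of 13 platelet markers 3 were listed, Pf4, Gp1bb and Nrgn, the last of which is above all a neuronal gene. Pf4, platelet factor 4, was at 1.44, 1.45 and 1.11 FPKM in HuD KO replicates 1, 2 and 3. In control replicates 1, 2 and 3 it was at 0.611, 0.998 and 0.760 FPKM. Its log2 fold change of 0.35 over 5 libraries did not pass the test (limma adjusted p = 0.995). Gp1bb was at 5.84, 4.81 and 4.06 FPKM in HuD KO replicates 1, 2 and 3. In control replicates 1, 2 and 3 it was at 8.07, 6.99 and 2.28 FPKM. Its log2 fold change over 5 libraries was −0.07 (SE 0.46), too uncertain to give a direction to set beside Pf4. Pf4 was higher in each HuD KO library than in each control, unlike the globins. The share of all genes in that order was not counted.

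Markers of vessels and of the meninges, where blood collects, were measured beside the globins. All 14 endothelial markers were listed and summed to between 104 and 115 FPKM in HuD KO and between 104 and 123 FPKM in control. Their median log2 fold change was −0.08 over 5 libraries and −0.06 over 6. It was below 0 for 12 of 14 over 5 libraries and 11 of 14 over 6, beside 55.5% and 52.4% of all genes tested. Claudin 5 (Cldn5), a tight junction gene of the blood-brain barrier, was at 23.4, 32.5 and 22.4 FPKM in HuD KO replicates 1, 2 and 3, against 31.5, 26.4 and 20.0 FPKM in control replicates 1, 2 and 3. The 10 pericyte and smooth muscle markers summed to between 62.4 and 74.2 FPKM in HuD KO and between 78.8 and 89.1 FPKM in control. Of these 10, 9 had a log2 fold change below 0 over 5 and over 6 libraries, where 55.5% and 52.4% of all genes tested did. Of 14 meningeal fibroblast markers 13 were listed, none at 0, and they summed to between 127 and 246 FPKM in HuD KO and between 293 and 455 FPKM in control. Of the 12 tested over 5 libraries 12 had a log2 fold change below 0, with a median of −0.38, 6 with an unadjusted p under 0.05, where 3.43% of all genes tested had one, and 0 called. Over 6 libraries it was 13 of 13, with a median of −0.37. Ptgds, prostaglandin D synthase, took most of that sum, at 193, 108 and 221 FPKM in HuD KO replicates 1, 2 and 3, against 308, 263 and 396 FPKM in control replicates 1, 2 and 3. Dcn, which encodes the collagen-binding proteoglycan decorin, was at 2.42, 1.23 and 2.61 FPKM in HuD KO replicates 1, 2 and 3, against 3.78, 2.84 and 9.85 FPKM in control replicates 1, 2 and 3.

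The meningeal markers and the globins thus both averaged lower in HuD KO and were highest in control replicate 3. Choroid plexus markers, 6 of 10 listed, summed to between 44.2 and 213 FPKM in HuD KO and between 33.2 and 343 FPKM in control, and Kcne2 was listed at 0 in 1 library of each genotype. Ttr, transthyretin, the defining mRNA of that tissue, was at 157, 5.19 and 86.5 FPKM in HuD KO replicates 1, 2 and 3, against 2.05, 1.78 and 287 FPKM in control replicates 1, 2 and 3. Control replicate 3 was thus high for choroid plexus, meningeal and globin mRNAs alike. The median deviation of the 12 cortical neuron markers was −0.34 on the log2 scale in that library, but the list was mixed there. Snap25, a synaptic gene, was at 271 FPKM beside 423 and 415 FPKM in the other controls, while Gad2, a gene of inhibitory neurons named here after its values were seen, was at 55.6 FPKM beside 27.1 and 27.4 FPKM. Without control replicate 3 the globin log2 fold changes lay between −0.18 and −0.15. Some other pairs of libraries ran the other way. Control replicate 2 held more globin than HuD KO replicate 1 (387 against 352 FPKM) and less choroid plexus mRNA (37.1 against 213 FPKM). HuD KO replicate 1 held more globin than control replicate 1 (352 against 329 FPKM) and less meningeal mRNA (215 against 340 FPKM). The part of meninges and choroid plexus in the globin levels was not tested. Markers of the cells of the cortex itself were all listed, 14 of microglia and macrophages, 11 of astrocytes, 10 of oligodendrocytes and 12 of cortical neurons, with 0 called and medians of −0.14, −0.10, 0.14 and 0.08 over 5 libraries in that order, and of −0.01, −0.06, 0.21 and 0.01 over 6. Log2 fold changes below 0 over 5 libraries numbered 12, 10, 0 and 5 in the same order, and 8, 9, 2 and 5 over 6. Astrocyte markers summed to between 498 and 557 FPKM in HuD KO and between 569 and 627 FPKM in control. Their genotypes thus did not overlap, as for the pericyte, meningeal and neutrophil sums, all lower in HuD KO. Sums also separated in the other direction, higher in HuD KO, for the erythroid-restricted list and for the genes shared by red cells and brain. For the latter they were 458 to 465 FPKM in HuD KO and 432 to 439 FPKM in control. Clearance and heme breakdown genes were also higher, at 1518 to 2106 FPKM in HuD KO and 1276 to 1404 FPKM in control. How often sums of other gene lists separate was not measured.

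**Figure D4:**
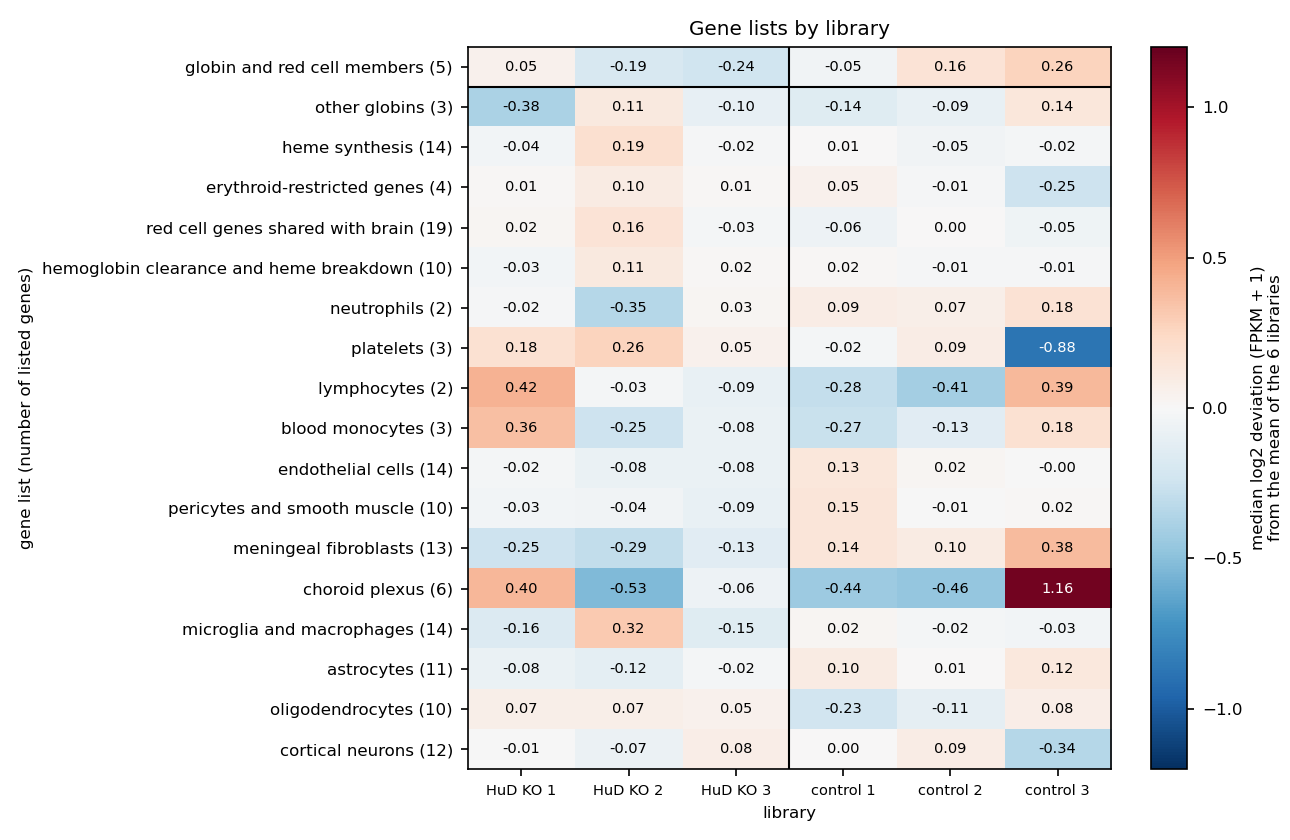
Median over the listed genes of each list (rows, number of genes in brackets) of the log2 deviation of FPKM + 1 from the mean of the 6 libraries, for HuD KO libraries left of control libraries (columns), colour and printed number giving the same value. The 5 globin and red cell genes run from −0.24 in HuD KO replicate 3 to 0.26 in control replicate 3, and meningeal fibroblast markers are at −0.25, −0.29 and −0.13 in HuD KO replicates 1, 2 and 3, against 0.14, 0.10 and 0.38 in control replicates 1, 2 and 3.

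Genes next to the members on the chromosome ranged widely in level. The nearest listed gene before the alpha genes was Nprl3, 15804 bases away, whose introns hold the distant enhancers of alpha globin in the mouse, at 1.95, 2.19 and 2.33 FPKM in HuD KO replicates 1, 2 and 3, against 2.27, 2.58 and 2.11 FPKM in control replicates 1, 2 and 3. Beside the beta genes the nearest listed gene was Trim34a, 416361 bases away, at 0.588, 0.559 and 0.778 FPKM in HuD KO replicates 1, 2 and 3, against 0.969, 0.865 and 0.952 FPKM in control replicates 1, 2 and 3. Alas2 lies within the span of Apex2 on the opposite strand, which was not listed. The nearest listed gene after it was Tro, 74666 bases away, at 8.68, 8.90 and 16.6 FPKM in HuD KO replicates 1, 2 and 3, against 7.97, 16.9 and 13.6 FPKM in control replicates 1, 2 and 3, above Alas2 in each library. Nprl3 and Trim34a thus lay far below the globin genes beside them in each library.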

How the data were processed

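RNA from neocortex of 3 HuD KO and 3 wild type mice was sequenced as stranded (dUTP) paired-end libraries. The submitters' processing notes name FastQC 0.11.5, cutadapt, Trimmomatic, STAR 2.7.3a and mm10. The authors deposited FPKM per gene and library. The program behind these values is not named in the sources used here. A second table, without HuD KO replicate 2, held the same values for the other 5 libraries. Columns with the authors' genotype means, fold changes, p-values and q-values were not used. A line of totals that names no gene was left out.

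Genes averaging 0.5 FPKM or more across the compared libraries entered limma 3.58.1 in R 4.3.3 on log2(FPKM + 1), eBayes with a trend, two-sided, Benjamini-Hochberg over all genes tested. The procedure was tested on simulated data. Single genes were also compared with exact permutation tests (SciPy 1.17.1). The FPKM carry no read counts, so no counting interval was possible, and precision rests on 2 or 3 libraries a genotype. The members and gene lists were chosen with earlier results of these data known. Named were the 5 members, Elavl4, each listed gene of the other globin and erythroid-restricted lists, up to 4 genes of the highest mean FPKM in each other list and the 6 genes of the nearest profile; Dcn and Pf4 are among these, and the neighbours on the chromosome were added by position. Some genes that this rule covers are not reported here. Of 13299 gene identifiers 11670 matched GENCODE M21 with their version. Alternatives were all 6 libraries, another pseudocount, filter, scaling or variance model, the replicate number as a term, and each library left out.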

Additional observations from a re-analysis of the deposited data

How the results depend on the processing

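The 4 globin genes kept a log2 fold change below 0 under each alternative tried, and no member passed a limma adjusted p of 0.05 under any, with adjusted p between 0.800 and 1.00. Leaving out 1 library at a time gave −0.38 to −0.13 for Hba-a1, −0.36 to −0.08 for Hba-a2, −0.39 to −0.07 for Hbb-bs, −0.43 to −0.07 for Hbb-bt and −0.16 to 0.08 for Alas2. Alas2 turned sign after quantile normalization (0.012), with the replicate block (0.022), without HuD KO replicate 3 (0.084) and without control replicate 2 (0.022), and was not tested with a minimum mean of 2 FPKM, which it does not reach. The log2 difference in the beta to alpha ratio moved to −0.11 with all 6 libraries, and stayed near 0 per spliced mRNA length and with FPKM multiplied by length, both alternatives chosen after seeing the data. The log2 ratio of summed globin FPKM ran from −0.40 to −0.09 with 1 library left out. Deviations of same-numbered libraries from their genotype means correlated at −0.12, 0.19 and 0.04 across genes. Differently numbered libraries were not compared, so whether replicate numbers pair the libraries was not settled. With the number as a block, which leaves control replicate 2 without a partner, the median of the members was −0.20. Over all genes 6 were called, 2 with a pseudocount of 0.1, 3 with the replicate block, and 2 to 11 with 1 library left out (2 without HuD KO replicate 1 or control replicate 1, 11 without control replicate 3); the cause was not tested. No scaling moved the median of all genes by more than 0.02. With 2 or 3 libraries a genotype and unknown depth, differences of the size seen were within the spread between libraries.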
